A study of Macaca fascicularis with 24 samples.

Results

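Reads of 6 gene IDs that are presumed to be the mitochondrially encoded genes of respiratory complexes III, IV and V were followed through 24 brain punch libraries of cynomolgus macaques. The members were chosen by ID, 6 of 29324 rows in each count file: ENSMFAG00000046417, ENSMFAG00000046418, ENSMFAG00000046419, ENSMFAG00000046420, ENSMFAG00000046421 and ENSMFAG00000046427. The files hold no gene symbols. From their place in a run of 13 consecutive IDs, which has the length and presumably the order of the protein-coding genes of the mitochondrial genome, they are inferred to be COX1, COX2, ATP8, ATP6, COX3 and CYTB, in that order. This is an inference and could not be checked against a symbol, a sequence or a coordinate, so each name below is written as presumed. The run drew attention because its genes are abundant: 5 of the 6 members held over 1% of all counted reads, and their large read shares are therefore a description and no finding. All 6 passed the filter on low counts, as did 14892 of the 29324 genes.

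The study used 8 animals, 4 treated with a divalent small interfering RNA (siRNA) against the Huntingtin transcript and 4 non-treated, with 3 punches per animal sequenced separately from polyadenylated RNA. The labels give no dose, route, time after dosing, age or brain region, and name no control siRNA or vehicle, so an effect of silencing and an effect of dosing cannot be told apart. The animal was the replicate, and the reads of its 3 punches were summed. In bulk tissue such as a punch, fewer cells of a type and less RNA per cell cannot be told apart.

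The mitochondrial genome is transcribed into long RNAs that span many genes and are then cut, mostly at the transfer RNAs between them, into separate messengers. Complex III passes electrons to cytochrome c, complex IV passes them on to oxygen, and complex V, the ATP synthase, uses the resulting proton gradient to make ATP. Most of their subunits are nuclear genes, but a few core subunits are encoded in the mitochondrion, and neurons depend heavily on this chain for energy. The reading frames of ATP8 and ATP6 overlap and lie on a shared messenger, and ATP6 runs into COX3 without a transfer RNA between them. How the counting treated reads that touch neighbouring genes is not given in the sources used here, and the nuclear genome carries copies of mitochondrial sequence, so reads of these genes can be split or shared.

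Libraries held 6761946 to 15741415 counted reads. In 23 of them 15946 to 17568 genes had a read, and in punch 3 of non-treated animal 1 only 11412 did. In that library the 6 members took 42.3% of the reads (95% Wilson interval 42.3% to 42.4%). Punch 1 of treated animal 1 had the next largest share, 31.2% (95% Wilson interval 31.1% to 31.2%). The intervals cover counting error only. Results are given with and without these libraries where they decide a value. Punch 1 of treated animal 1 was singled out by its high share of these same genes. Leaving it out, or leaving out its animal, therefore lowers the treated levels by construction, and the smaller p-values that follow are no separate support.

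Together the 6 members took a smaller part of the reads in treated animals. Their summed share was 28.9%, 21.6%, 23.7% and 22.2% in non-treated animals 1 to 4 and 22.6%, 16.4%, 16.2% and 17.0% in treated animals 1 to 4. Treated animal 1 lay within the non-treated range, and the other treated animals lay below it. The means were 24.1 ± 3.32% and 18.1 ± 3.06% (SD, n = 4 each), so the treated mean was -6.04 percentage points away. No test is given for this sum, since the members were chosen with results known. Leaving out both libraries named above gave -6.45 points, and leaving out treated animal 1 gave -7.56 points. By punch number the difference was -2.84 points in punch 1, which holds the high library of treated animal 1, -7.24 points in punch 2 and -10.4 points in punch 3, which holds the high library of non-treated animal 1. In punch 2, which holds neither, treated libraries had 15.5% to 16.5% and non-treated libraries 21.3% to 26.8%, without overlap.

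**Figure D1:**
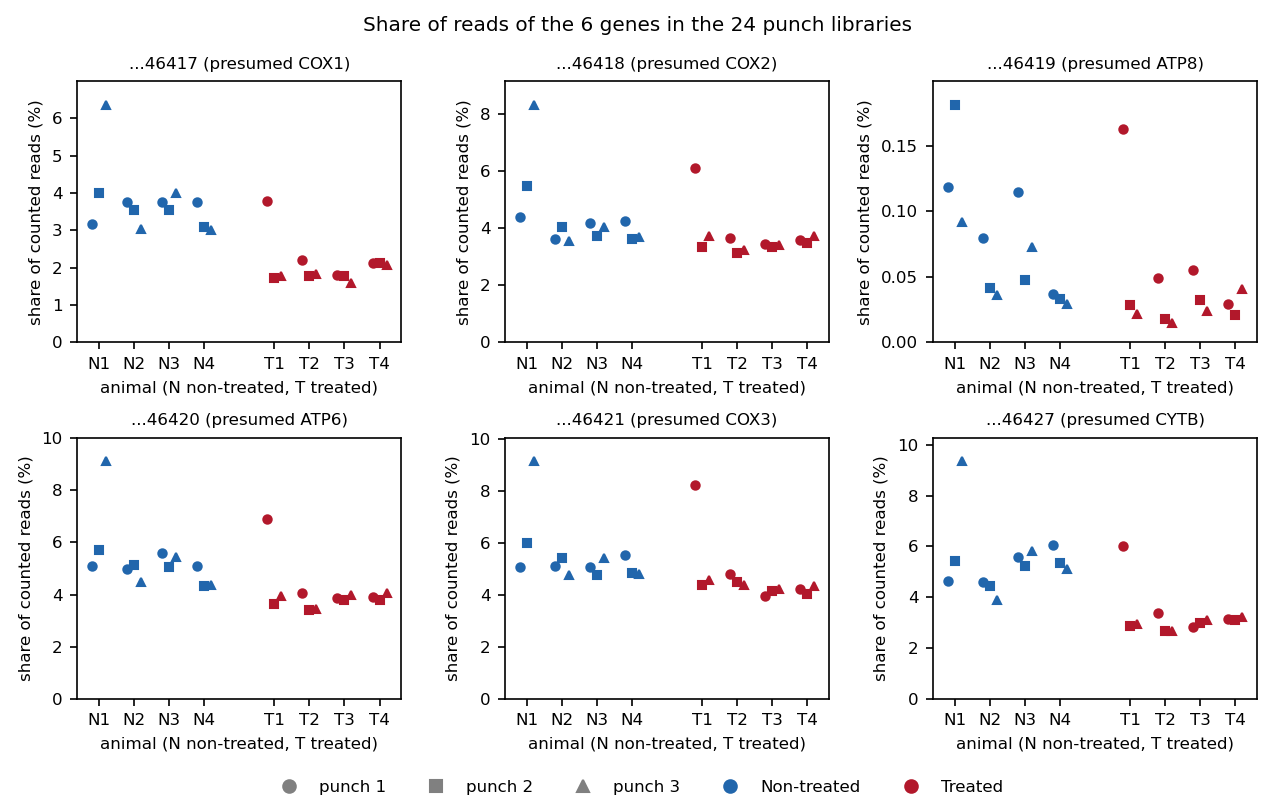
Share of counted reads (%) of each of the 6 genes in every library, 1 panel per gene, with animals on the horizontal axis (N1 to N4 non-treated, T1 to T4 treated) and 1 symbol per punch number. Punch 1 of T1 is the highest treated library in all 6 panels, and punch 3 of N1 is the highest non-treated library in all but that of presumed ATP8.

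None of the 6 members passed the edgeR quasi-likelihood test between the groups (adjusted p under 0.05 over all tested genes), which called 0.0336% of all genes (0.0269% as lower). At an unadjusted p under 0.05, 3 of the 6 were lower in treated animals, presumed COX1, ATP6 and CYTB, where 5.4% of all genes were. The fitted difference was below 0 for all 6, as for 52.1% of all genes, with a median log2 fold change of -0.79 against -0.01 over all genes. DESeq2 called 2 of the 6, presumed COX1 and CYTB, both lower (0.758% of all genes with an adjusted p were called lower by DESeq2), and limma-voom called 0 (0.0269% of all genes as lower). On simulated counts DESeq2 made 31 false calls where edgeR made 7. Levels below are CPM (a gene's reads divided by the library total, times a constant) after TMM scaling. They do not compare members with each other, since gene lengths were not used here.

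In complex IV, presumed COX1, the subunit that holds the site where oxygen is reduced, had the largest fitted difference. It was at 53679, 35287, 41439 and 34012 CPM in non-treated animals 1 to 4 and at 27750, 16282, 15158 and 18059 CPM in treated animals 1 to 4. In CPM all treated animals lay below all non-treated animals, the only member of which this was true. In CPM 3.2% of all genes were lower without overlap, and 5.31% were without overlap in either direction. By share of counted reads presumed CYTB was without overlap as well. The mean CPM of presumed COX1 was 53.0% lower, and its fitted log2 difference was -1.09 with an SE of 0.214 (edgeR adjusted p = 0.191). Its call turned on single libraries and on the tool, and it passed in 5 of 24 alternatives. The adjusted p was 0.000133 with DESeq2. With edgeR it was 0.00389 in punch 2 alone, 0.00893 without punch 1 of treated animal 1, 0.000556 without both libraries and 0.0203 without treated animal 1. It did not pass with limma-voom (adjusted p = 0.105). Nor did it with edgeR in punch 1 alone (adjusted p = 0.966), in punch 3 alone (0.807) or without punch 3 of non-treated animal 1 (0.168).

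Presumed COX2, the subunit that takes electrons from cytochrome c, was at 72320, 37352, 44091 and 39892 CPM in non-treated and 49093, 27994, 29938 and 30942 CPM in treated animals. Treated animal 1 overlapped the non-treated range. The fitted log2 difference was -0.49 with an SE of 0.24 (edgeR adjusted p = 0.551). Presumed COX3, the remaining core subunit, was at 80666, 51249, 55801 and 52707 CPM in non-treated and 64478, 38417, 36316 and 36162 CPM in treated animals, again with only treated animal 1 in the non-treated range. Its log2 difference was -0.46 with an SE of 0.221 (edgeR adjusted p = 0.54). In punch 1 alone both had a fitted difference above 0, at 0.07 and 0.09 on the log2 scale, in the presence of the high library of treated animal 1. Without both libraries the edgeR adjusted p of presumed COX3 was 0.04997, just under the threshold, at a log2 difference of -0.53.

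In complex III, presumed CYTB, the cytochrome b subunit and the one member of that complex encoded in the mitochondrion, was at 76693, 43966, 61053 and 57229 CPM in non-treated and 44880, 24529, 26266 and 27232 CPM in treated animals. Only treated animal 1 reached above the lowest non-treated animal. The log2 difference was -0.96 with an SE of 0.223 (edgeR adjusted p = 0.246). It passed in the same alternatives as presumed COX1, with adjusted p-values of 0.00356 with DESeq2 and, with edgeR, of 0.00389 in punch 2, 0.0199 without punch 1 of treated animal 1, 0.00303 without both libraries and 0.0299 without treated animal 1. It did not pass with limma-voom (adjusted p = 0.191). Nor did it with edgeR in punch 1 alone (adjusted p = 0.985), in punch 3 alone (0.895) or without punch 3 of non-treated animal 1 (0.234).

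In complex V, presumed ATP6, which forms part of the proton path, was at 79574, 49079, 59609 and 47859 CPM in non-treated and 54396, 30679, 34300 and 33928 CPM in treated animals. Its log2 difference was -0.62 with an SE of 0.218 (edgeR adjusted p = 0.392), and without both libraries it was -0.69 (edgeR adjusted p = 0.0277). Presumed ATP8, a small subunit of the membrane part of the enzyme, was the most variable member, at 1673, 585, 908 and 343 CPM in non-treated and 882, 235, 320 and 271 CPM in treated animals. Its coefficient of variation was 66.0% and 71.5% in the groups, where that of the other 5 ran from 21.9% to 33.4%. The log2 difference of -1.04 had an SE of 0.491 (edgeR adjusted p = 0.533), and its 95% interval of -2.11 to 0.03 left room for no difference. For presumed COX2 and COX3 the intervals, -1.01 to 0.04 and -0.94 to 0.03, did so too.

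**Figure D2:**
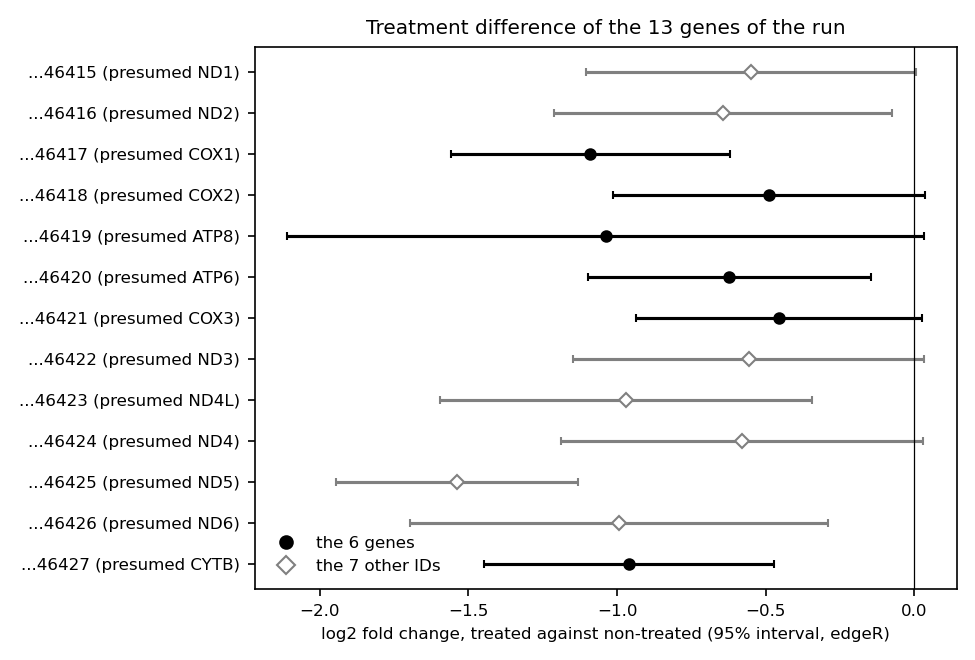
Fitted log2 fold change with its 95% interval (derived from the edgeR F statistic, not adjusted for the number of genes), treated against non-treated, for the 6 genes (filled circles) and the 7 other IDs of the run (open diamonds). All 13 estimates are below 0, from -1.54 to -0.46, and the 6 genes run from -1.09 to -0.46.

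The other 7 IDs of the run, presumed to be subunits of complex I, the entry point of the chain, also all had a fitted difference below 0, with a median log2 fold change of -0.64 and a range of -1.54 to -0.55. Of these 7, 1 passed the edgeR test, presumed ND5, at -1.54 on the log2 scale with an SE of 0.186 (edgeR adjusted p = 0.0244). In CPM 2 of the 7, presumed ND5 and ND6, were lower in all treated than in all non-treated animals, as presumed COX1 was (3.2% of all genes). By share of counted reads presumed ND6 overlapped, with 0.0194% in treated animal 4 and 0.0160% in non-treated animal 3. With library totals as the only scaling, the median log2 difference was 0.27 over all genes in place of -0.01 and -0.52 over the 6 members in place of -0.79, with all 6 below 0.

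Presumed COX1 and CYTB were lower relative to presumed COX2, ATP6 and COX3 in every treated animal than in any non-treated animal. Ratios of reads between members of the same library need no scaling and cancel any share that the members have in common. Of the 15 ratios among the 6 members, 6 had no overlap between treated and non-treated animals (40.0%), where 5.43% of all pairs of tested genes and 6.53% of pairs of genes with a mean of at least 100 CPM had none. These 6 were all the ratios of presumed COX1 or CYTB to presumed COX2, ATP6 or COX3. None of the 4 ratios within these sets (COX1 to CYTB, and among COX2, ATP6 and COX3) and none of the 5 ratios with presumed ATP8 was without overlap. The 6 ratios share members and are not independent of each other. The labels give neither the origin of the animals nor how each group's tissue was handled, so treatment cannot be told apart from any other difference between these 2 sets of animals. Each had an exact two-sided permutation p of 0.0286, the smallest that the 70 assignments of 8 animals can give, and 0.0714 after Benjamini-Hochberg adjustment over the 15 ratios, which missed the threshold of 0.05.

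For each read of presumed COX3 there were 0.665, 0.689, 0.743 and 0.645 reads of presumed COX1 in non-treated animals 1 to 4, and 0.430, 0.424, 0.417 and 0.499 in treated animals 1 to 4. The means were 0.685 ± 0.042 and 0.443 ± 0.0381 (SD, n = 4 each), and the log2 ratio differed by -0.63, several times the SD between animals of 0.0872 and 0.12. The ratio of presumed COX1 to COX2 differed by the same amount, -0.63, with 0.742 to 0.945 in non-treated and 0.506 to 0.584 in treated animals. That of presumed COX1 to ATP6 differed by -0.48, with 0.675 to 0.719 and 0.442 to 0.532.

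Presumed CYTB was on the same side as presumed COX1. For each of its reads there were 1.05, 1.17, 0.914 and 0.921 reads of presumed COX3 in non-treated animals and 1.44, 1.57, 1.38 and 1.33 in treated animals, a log2 difference of 0.50. Reads of presumed COX2 per read of presumed CYTB ran from 0.697 to 0.943 in non-treated and from 1.09 to 1.14 in treated animals, a difference of 0.50. For presumed ATP6 they ran from 0.836 to 1.12 and from 1.21 to 1.31, a difference of 0.35.

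In the 4 ratios within these sets the groups overlapped. Presumed COX2 to COX3 had a mean of 0.793 ± 0.0734 in non-treated and 0.793 ± 0.0579 in treated animals (SD, n = 4 each). Presumed COX1 to CYTB was at 0.694 ± 0.0856 and 0.631 ± 0.0415 (exact permutation p = 0.229, n = 4 each), and presumed ATP6 to COX3 at 0.98 ± 0.0671 and 0.881 ± 0.0719 (exact permutation p = 0.114, n = 4 each). The remaining ratio of this kind, presumed COX2 to ATP6, was at 0.811 ± 0.0767 and 0.9 ± 0.0186 (exact permutation p = 0.0857, n = 4 each). At this number of animals these p-values do not show that the ratios were equal.

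**Figure D3:**
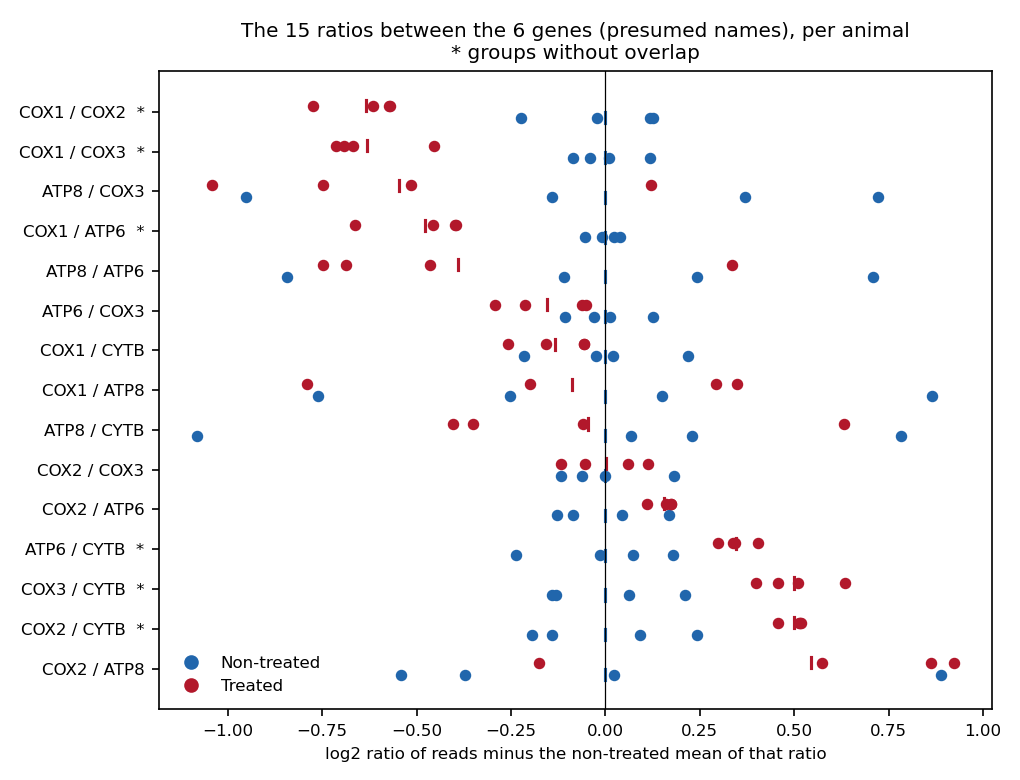
The 15 read ratios between the 6 genes, 1 row each, as log2 ratio per animal minus the mean of the non-treated animals, with non-treated animals in blue, treated animals in red and short lines at the group means. The 6 rows with an asterisk, all between presumed COX1 or CYTB and presumed COX2, ATP6 or COX3, have no overlap between the groups, and the rows with presumed ATP8 are the widest.

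As parts of the reads of the 6 members, presumed COX1 took 15.3 ± 0.775% in non-treated and 11.6 ± 0.697% in treated animals, and presumed CYTB took 22.3 ± 2.03% and 18.3 ± 0.396% (SD, n = 4 each). Presumed COX3 took 22.4 ± 0.984% and 26.2 ± 1.37%, presumed COX2 took 17.7 ± 1.41% and 20.7 ± 0.449%, and presumed ATP6 was at 21.9 ± 0.943% and 23.0 ± 0.835%. These parts sum to the whole, so a lower part of one member means a higher part of others. They are a description.

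The separation was present in single punches. All 6 ratios were without overlap in punch 1, in punch 2 and in punch 3 taken alone, with presumed COX2 to ATP6 as another in punch 1. The punches are parts of the sums in which these 6 were picked, so this is no separate support. Over the 24 libraries 5 of the 6 were without overlap between the 12 treated and the 12 non-treated libraries, punches of 1 animal not being independent. The share over all pairs of genes was not computed for single punches or libraries. The narrowest of the 5 was presumed COX2 to CYTB, up to 1.009 in non-treated and from 1.014 in treated libraries. Reads of presumed COX1 per read of presumed COX3 had a lowest value, median and highest value of 0.626, 0.674 and 0.747 in non-treated libraries and of 0.377, 0.442 and 0.529 in treated libraries. The exception was presumed ATP6 to CYTB, with 0.811 to 1.15 in non-treated and 1.15 to 1.36 in treated libraries. The libraries with the largest summed shares did not stand apart in the ratio of presumed COX1 to COX3, with 0.696 in punch 3 of non-treated animal 1 and 0.460 in punch 1 of treated animal 1. Without both libraries the same 6 ratios were without overlap.

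**Figure D4:**
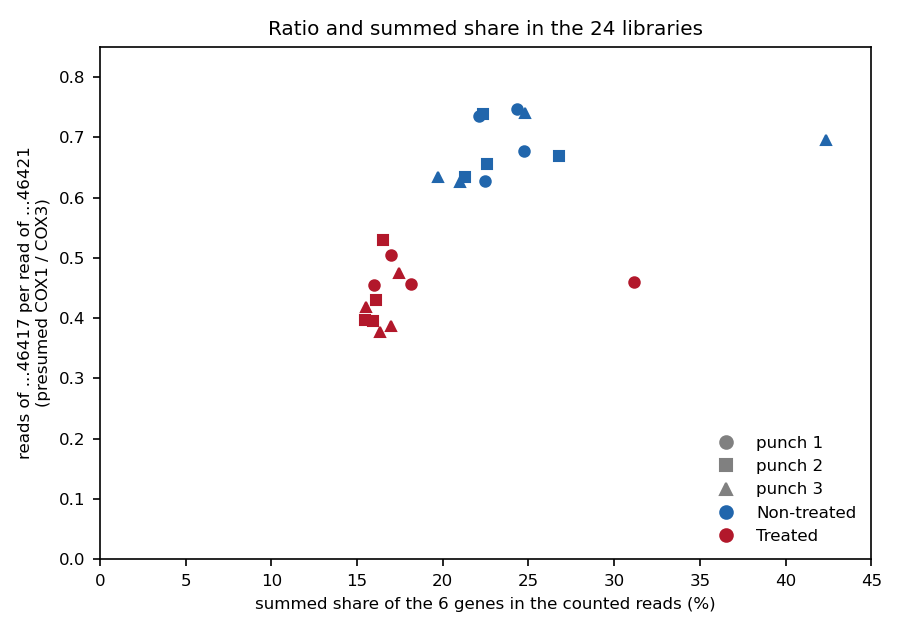
Reads of presumed COX1 per read of presumed COX3 (vertical axis) against the summed share of the 6 genes in the counted reads (%, horizontal axis), 1 point per library, coloured by group and shaped by punch number. The treated libraries lie between 0.377 and 0.529 and the non-treated ones between 0.626 and 0.747, also at the far right, where the share is 31.2% (treated) and 42.3% (non-treated).

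Measured against presumed COX3 in the same way, 1 of the 7 presumed complex I genes was without overlap. This was presumed ND5, at 0.358 ± 0.0493 reads per read of presumed COX3 in non-treated and 0.174 ± 0.043 in treated animals (SD, n = 4 each). Presumed ND1 was at 0.789 ± 0.129 and 0.772 ± 0.168.

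Across the 24 libraries the levels of the members moved together, which is a description, since the libraries share animals and a common scaling. The r values pool treated and non-treated libraries, so they partly restate the group difference in the ratios and are no separate evidence of it. By Pearson's r of log2 CPM over the 13 IDs of the run, presumed COX1 was most like presumed CYTB and the reverse (r = 0.985, and 0.973 without punch 3 of non-treated animal 1). Presumed COX2 and COX3 were most like each other (r = 0.987), presumed ATP6 was most like presumed COX2 (r = 0.984), and presumed ATP8 stood further off, closest to presumed ND4L (r = 0.862). All 6 were least like presumed ND6, which lies on the other strand of the genome, at r = 0.648 to 0.801. Outside the run, the genes most like the summed level of the 6 were ENSMFAG00000042750 (r = 0.988) and ENSMFAG00000020465 (r = 0.983) among 14252 candidates. Without punch 3 of non-treated animal 1 these were 0.983 and 0.962.

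Between the punches of an animal, levels of 5 members varied little in most animals. In CPM the highest punch exceeded the lowest by a median factor of 1.28 to 1.37 over the 8 animals for these 5. The widest factors, at 4.87 to 5.49, were in non-treated animal 1, which holds a high library. They depend on the scaling of that library. Presumed COX1 was at 31740 CPM in punch 1 and 171996 CPM in punch 3 of that animal, but at 3.18% and 6.35% of counted reads. For presumed COX3 the shares were 5.06% and 9.13%. Presumed ATP8 had a median factor of 2.34 and a widest of 12.1, in treated animal 1. It was highest in punch 1 in 6 of 8 animals, with a median of 635 CPM in punch 1 against 303 CPM in punch 2 and 313 CPM in punch 3. Presumed COX1 was also highest in punch 1 in 6 of 8 animals (medians of 34547, 24000 and 22889 CPM), presumed COX2 in 5, presumed ATP6 and CYTB in 4 each and presumed COX3 in 3.

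In the test of punch numbers within animals none of the 6 passed by edgeR or by limma-voom, where edgeR called 1.07% and limma-voom 2.09% of all genes. Only presumed ATP8 had an unadjusted p under 0.05. Its log2 difference from punch 1 was -1.17 in punch 2 and -1.03 in punch 3 (edgeR unadjusted p = 0.00324, adjusted p = 0.0822). Without punch 3 of non-treated animal 1 these were -1.12 and -1.16 (edgeR adjusted p = 0.0318), a fit that called 9.13% of all genes. It also passed without non-treated animal 1 (adjusted p = 0.0293). With any other animal left out it did not pass, the smallest edgeR adjusted p of the 6 members being 0.0619 to 0.273. With library size as the only scaling the smallest was 0.798. With all libraries, the 5 members other than presumed ATP8 had adjusted p-values of 0.544 to 0.607. Whether the treatment difference itself differed between punch numbers was tested too, and 0 of the 6 passed by edgeR or limma-voom (0% of all genes by edgeR), with 0 at an unadjusted p under 0.05 (1.99% of all genes) and unadjusted edgeR p-values of 0.0966 to 0.227.

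**Figure D5:**
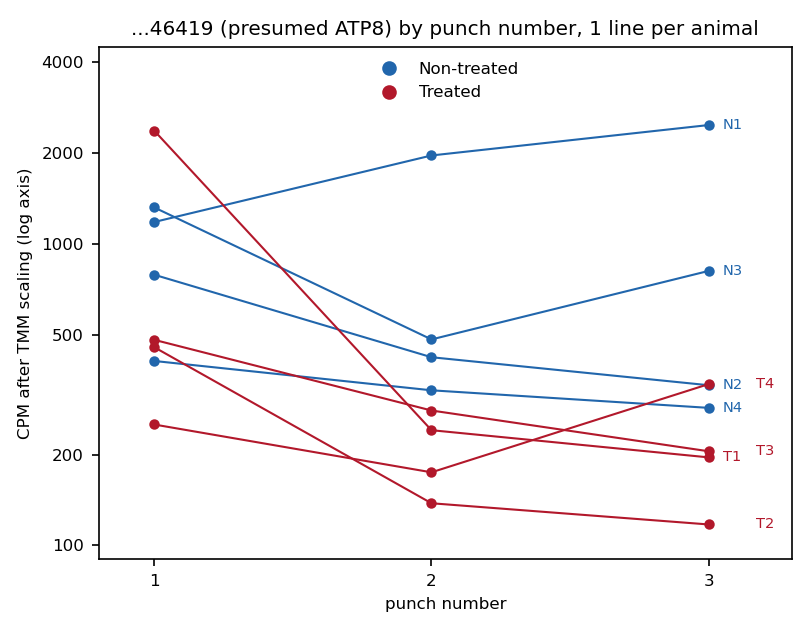
CPM after TMM scaling of presumed ATP8 (log axis) by punch number, with 1 line per animal, non-treated in blue and treated in red. Punch 1 is the highest point in 6 of 8 animals. The exceptions are N1 and T4, both highest in punch 3. For N1 this depends on the scaling. By share of counted reads its punch 3 was lowest, at 0.0916% against 0.118% in punch 1 and 0.181% in punch 2.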

How the data were processed

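Per the labels' protocols, punches were flash frozen and stranded libraries were made from polyadenylated RNA. The authors deposited raw read counts per Ensembl gene ID, 1 file per library, and the submitters' processing notes name STAR 2.5.3a and HTSeq 0.10.0. The build, the annotation and the counting mode are not stated in the labels. Molecular identifiers are not mentioned either. The p-values of the treatment comparisons measure the spread between animals. Those of the tests of punch number, and of treatment by punch number, measure the spread between punches within animals.

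Counts were summed over the 3 punches of each animal, filtered with filterByExpr (minimum count 10), scaled by TMM and tested by edgeR 4.0.16 (R 4.3.3), with p-values adjusted over all tested genes. Single libraries, with animal as a term, served for punch numbers. DESeq2 1.42.0 and limma-voom 3.58.1 were alternatives. On counts simulated for the treatment comparison over 14892 genes, the edgeR fit found 64 of 100 simulated 2-fold differences and 92 of 100 simulated 4-fold differences, and made 7 false calls. On the same counts DESeq2 found 74 and 95 of 100 and made 31 false calls, and limma-voom found 65 and 93 and made 9. The edgeR test of punch number found 77 of 100 simulated 2-fold differences. That of treatment by punch number found only 39 of 100, so its lack of calls is weak evidence of no difference. Simulated counts were drawn independently, without outlying libraries like those described above. Counts of all 276 pairs of libraries differed by more than sampling noise (chi-square over degrees of freedom at least 3.92). The text names the 6 members, the other 7 IDs of the run, and the 2 genes most like the members' sum. No reference table gave symbols, lengths or sequences for these IDs. Nuclear subunits and cell type markers were therefore not analysed here. Members, lists and libraries left out were chosen with earlier results of these data known. The share of ratios among genes of at least 100 CPM was added after the ratios were seen.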

Additional observations from a re-analysis of the deposited data

Results flagged for a closer look

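Levels, shares and ratios were examined in 50 sets of 4 animals or libraries, and 10 sets held 1 value well apart from the rest, about 2.5 being usual by chance. Treated animal 1 was that value's source in 7 of the treated sets with a high value and in 1 with a low one. Its level was 49093 CPM in presumed COX2 (the others 27994 to 30942), 882 CPM in presumed ATP8 (235 to 320), 54396 CPM in presumed ATP6 (30679 to 34300), 64478 CPM in presumed COX3 (36162 to 38417) and 44880 CPM in presumed CYTB (24529 to 27232). Its summed share of reads was 22.6% (16.2% to 17.0%), and in punch 1 it was 31.2% (16.0% to 18.2%). Its ratio of presumed COX2 to CYTB was 1.09, just below the 1.14 of each other treated animal.

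Non-treated animal 1 stood above its group in presumed COX3, at 80666 CPM where the others had 51249 to 55801. Treated animal 4 had the highest treated ratio of presumed COX1 to COX3, 0.499 where the others had 0.417 to 0.430. Depth was not unusual in punch 1 of treated animal 1 (14397505 reads) or in punch 3 of non-treated animal 1 (8271894 reads). What sets these libraries apart was not tested.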

How the results depend on the processing

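The number of members called between the groups, 0 by edgeR, was 2 with DESeq2, 2 in punch 2 alone, 2 without punch 1 of treated animal 1 and 4 without both libraries. Leaving out each animal gave 0 to 2, the 2 without treated animal 1. The number called over all genes rose in these settings too. It was 5 by edgeR, 159 with DESeq2 and 15 in punch 2 alone. Without punch 1 of treated animal 1 it was 18, without both libraries 21 and without treated animal 1 43. The remaining alternatives gave 0. In punch 1 alone the log2 fold change was above 0 in presumed COX2 (0.067) and COX3 (0.0871). The number called between punch numbers, 0, was 1 in each of 3 alternatives (no filter on low counts, punch 3 of non-treated animal 1 left out, both libraries left out). Omitting 1 animal at a time gave 0 to 1, the 1 without non-treated animal 1. The member called was presumed ATP8 in each, and 10 of the 14 alternatives gave 0. The difference in summed share, -6.04 points, was -2.84 in punch 1 and -10.4 in punch 3, with -7.56 to -4.44 on omitting 1 animal. The count of ratios without overlap, 6, was 6 to 8 in 15 alternatives, each with the same 6 among them. Leaving out an animal cannot create overlap, and punches taken alone are parts of the same sums. The test of treatment by punch number gave 0 in all 14 alternatives. The cause was not tested.

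With the replicate number as a block, 0 of the 6 members were called, and presumed COX1 had a log2 fold change of -1.11 (edgeR adjusted p = 0.053). The labels tie equal numbers to no common source. Deviations of animals with equal numbers correlated at 0.00729, 0.0182, 0.222 and -0.142, and number 3 alone was closest to its counterpart.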
